A study of Mus musculus with 6 samples.

Results

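The 31 genes described here encode the proteins that bring glucose into the cell, carry it through glycolysis to lactate, and store it as or release it from glycogen. They were chosen by name from the 19877 genes of the deposited expression table, and all 31 were found there. The choice was made with earlier results of these data known, so counts among them are a description. Messenger RNA was sequenced from mouse cells labelled ADSCs, which usually stands for stem cells taken from adipose tissue, a stromal population of fat that can form several cell types. The labels give every library the genotype WT. Cells with a hairpin against Ifit1, labelled IFIT1 knockdown, were compared with cells labelled Scrambled, with 3 libraries each. Each of 3 labelled batches held 1 knockdown and 1 scrambled library. The labels do not name the strain, age or number of animals, the number of hairpins or clones, or whether libraries came from separate cultures, so p-values measure the spread between these libraries only, which may be technical.

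Glycolysis splits each glucose into a pair of pyruvate molecules and yields ATP without oxygen, and lactate dehydrogenase then turns pyruvate into lactate so that the pathway can run on. Hypoxia-inducible factor 1 (HIF-1) is a transcription factor that raises many of these genes when oxygen is short, and MYC raises several of them in growing cells. Cultured mesenchymal stromal cells are known to draw much of their energy from glycolysis.

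Levels are FPKM, fragments scaled by gene length and library depth, as the authors deposited them. Depth, recovered from those values, was 36.5, 32.2 and 40.2 M fragments in knockdown libraries 1, 2 and 3 and 40.6, 37.1 and 37.7 M in scrambled libraries 1, 2 and 3. The targeted gene Ifit1, an interferon-induced RNA-binding protein, stood at 1.76, 1.48 and 1.51 FPKM in knockdown libraries 1, 2 and 3, against 4.90, 3.75 and 4.97 FPKM in scrambled libraries 1, 2 and 3 (log2 fold change -1.27 ± 0.11, limma adjusted p = 5.71e-05). Of 12 mesenchymal stromal markers 11 averaged at least 1 FPKM, among them Cd44, Thy1 and Ly6a, while Nt5e averaged 0.206 FPKM in knockdown and 0.234 FPKM in scrambled libraries. The summed level of those 12 markers was 1710 to 2000 FPKM in knockdown and 2700 to 3040 FPKM in scrambled libraries, a gap that lay mainly in Col1a1 and Col1a2. Besides these collagens, Ly6a (-0.82), Thy1 (-0.42), Eng (-0.58), Pdgfra (-0.57) and Pdgfrb (-0.65) fell on the log2 scale. Not all of these markers were lower in knockdown: Cd44 (0.50), Alcam (0.53) and Itgb1 (0.09) rose on the log2 scale. What this shift contributes to the results was not tested. Markers of endothelium (5 genes) summed to at most 0.0984 FPKM in knockdown and 0.101 FPKM in scrambled libraries, with none averaging 1 FPKM. The 6 macrophage and leukocyte markers in the table summed to 1.72 to 2.17 FPKM in knockdown and 1.94 to 2.39 FPKM in scrambled libraries. Nearly all of that was Cd68, at 1.87 FPKM in knockdown and 1.92 FPKM in scrambled libraries, while Ptprc, the general leukocyte marker, averaged 0.00175 FPKM in knockdown and was listed at 0 in scrambled libraries. The 6 epithelial and mesothelial markers summed to 13.7 to 18.8 FPKM in knockdown and 19.3 to 27.5 FPKM in scrambled libraries, nearly all of it Msln. The 4 of 7 adipocyte markers analysed here summed to 3.70 to 4.96 FPKM in knockdown and 4.43 to 5.60 FPKM in scrambled libraries. Most of that was Pparg, at 3.44 FPKM in knockdown and 3.96 FPKM in scrambled libraries, and Fabp4 averaged 0.700 FPKM in knockdown and 0.893 FPKM in scrambled libraries, while Adipoq was listed at 0 in knockdown libraries and averaged 0.00723 FPKM in scrambled libraries. In such bulk libraries, fewer cells of a type and less RNA per cell cannot be told apart.

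Of the 31 genes, 26 fell in knockdown cells, 1 rose and 4 did not pass the test. Genes that reached 1 FPKM in 3 or more of the 6 libraries were tested with limma on log2(FPKM + 0.5), with Benjamini-Hochberg adjustment over all 10311 tested genes and a threshold of 0.05. All 31 genes met that filter, although Slc2a3, Pfkfb2, Aldoc and Pygl met it in scrambled libraries only, so a difference was built into their passing. The background was high: 31.1% of all tested genes fell and 19.8% rose, 51.0% together. That split depended on the scaling, with 3209 genes lower and 2046 higher on the deposited values, 4035 and 1540 after rescaling to TPM, 2293 and 3001 with medians centred, 2256 and 2486 with quantiles equalised, and 2480 and 2273 with cyclic loess normalization. Under the same 4 scalings 27, 21, 23 and 24 of the 31 genes fell. The median log2 fold change of the 31 genes was -0.32, and that of all tested genes -0.05. Among genes with a mean FPKM of at least 5, refitted alone, 20 of the 24 that belong to the pathway set fell, 1 rose, and 27.8% of all 7342 fell and 25.2% rose.

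The falls were found at every level of expression. The counts by level are for the deposited values, and other scalings change them. Among the most abundant genes, with a mean of at least 100 FPKM, 7 of 8 fell, where 16.0% of all tested genes of that level fell and 53.7% rose, 69.7% together. Of these 7, Gapdh, Pgam1 and Pkm lost their call under median centring (limma adjusted p of 0.087, 0.312 and 0.579). Eno1, not among the 7, passed as lower after quantile and cyclic loess normalization. Between 10 and 100 FPKM 11 of 14 fell, where 26.4% of all genes fell and 26.4% rose, 52.8% together. Under 10 FPKM 8 of 9 fell, where 37.6% of all genes fell and 9.24% rose, 46.8% together. Of those 8, 4 (Slc2a3, Pfkfb2, Aldoc and Pygl) met the filter in scrambled libraries only, so their passing had a difference built in. All 27 genes that passed had the same sign in the 3 batches. Knockdown and scrambled libraries did not overlap for 28 of the 31 genes, 26 of them lower and 2 higher in knockdown, where 37.3% of all tested genes were lower without overlap and 61.1% did not overlap in either direction. On mean FPKM the 26 falls ran from 5.96% (Pkm) to 89.2% (Pygl).

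**Figure D1:**
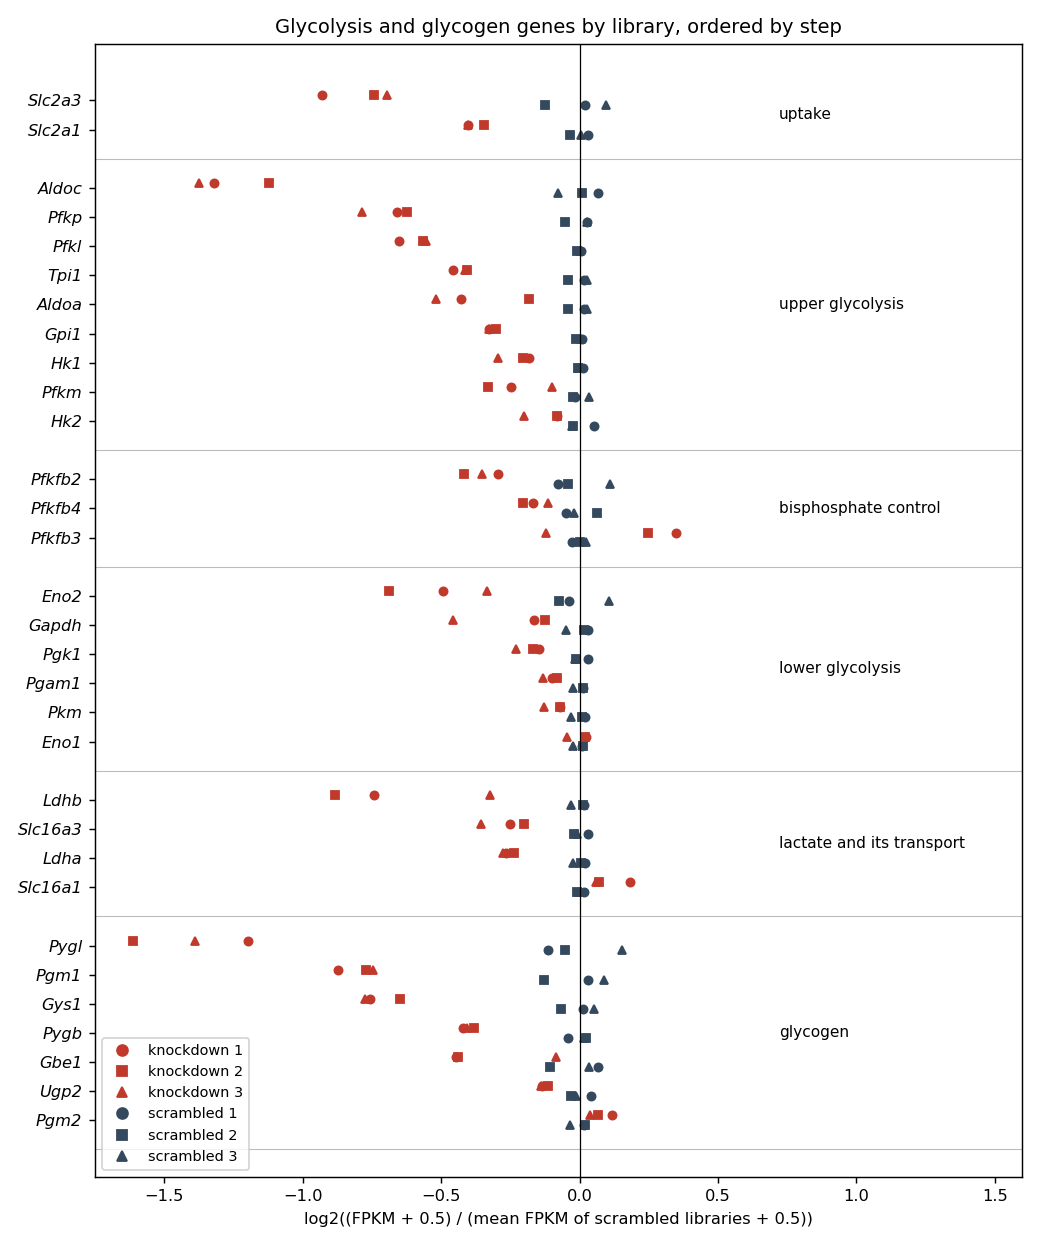
Each row is 1 gene and each point 1 library (red knockdown, dark scrambled, with the same shape for libraries of 1 batch), plotted as the log2 ratio of FPKM + 0.5 to the scrambled mean + 0.5. For 26 genes the 3 red points lie left of the 3 dark ones, Slc16a1 and Pgm2 lie to the right, and Eno1, Pfkfb3 and Gbe1 overlap.

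**Figure D2:**
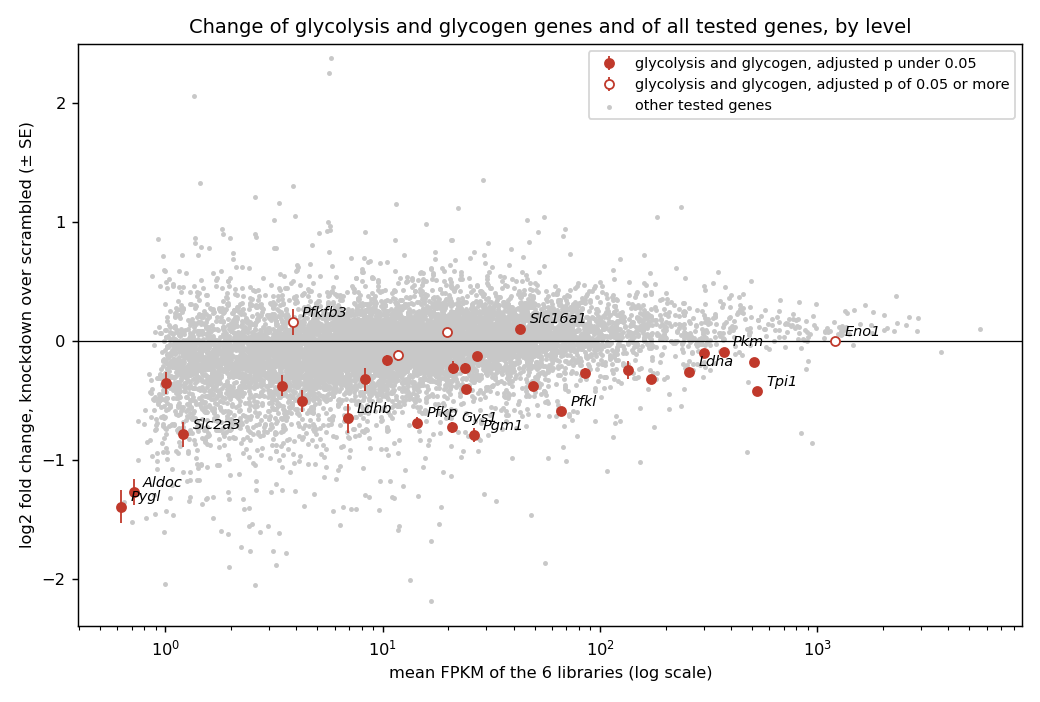
Mean FPKM of the 6 libraries (log scale) against the log2 fold change of knockdown over scrambled, with the 31 genes in red (bars are the SE, filled symbols passed the threshold) over all 10311 tested genes in grey. The red points lie below 0 at low and at high levels, apart from Eno1, Pgm2, Slc16a1 and Pfkfb3.

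The promoters of the 4 genes with the smallest p among those that hold a HIF-1 core motif are shown as a description. Tpi1, Gys1 and Gpi1 had a smaller p than Slc2a1 but hold no core and were passed over. Whether HIF-1 acts on any of these genes was not tested. HIF-1 binds a core of ACGTG or GCGTG, which was searched for on both strands in the 250 bases before each start in RefSeq on GRCm38.p6. Capitals mark each match, read as CACGT or CACGC where it lies on the other strand.
Pfkl: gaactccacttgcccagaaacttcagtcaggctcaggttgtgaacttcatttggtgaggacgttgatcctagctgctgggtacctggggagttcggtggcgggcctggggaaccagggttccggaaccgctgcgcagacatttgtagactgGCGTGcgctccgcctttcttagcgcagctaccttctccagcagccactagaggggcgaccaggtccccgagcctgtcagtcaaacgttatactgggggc
Pfkp: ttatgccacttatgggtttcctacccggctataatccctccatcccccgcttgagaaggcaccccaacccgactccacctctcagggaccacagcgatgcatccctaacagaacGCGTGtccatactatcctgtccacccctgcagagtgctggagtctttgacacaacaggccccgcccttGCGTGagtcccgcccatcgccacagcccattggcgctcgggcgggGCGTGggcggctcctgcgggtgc
Pgm1: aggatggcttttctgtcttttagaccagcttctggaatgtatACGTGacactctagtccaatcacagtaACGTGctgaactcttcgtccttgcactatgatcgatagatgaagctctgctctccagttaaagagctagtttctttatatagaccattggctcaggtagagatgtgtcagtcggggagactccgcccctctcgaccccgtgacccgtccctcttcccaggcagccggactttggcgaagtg
Slc2a1: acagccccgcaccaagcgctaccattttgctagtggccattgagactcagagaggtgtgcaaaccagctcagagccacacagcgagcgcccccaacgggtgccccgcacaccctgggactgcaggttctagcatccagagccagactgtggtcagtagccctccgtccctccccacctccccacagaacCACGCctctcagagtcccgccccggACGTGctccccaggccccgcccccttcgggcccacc
The Pfkl window is chr10:78009808-78010057, minus strand, and holds 1 match. The Pfkp window, chr13:6648772-6649021, minus strand, holds 3 matches. Those of Pgm1 (chr4:99929201-99929450, plus strand) and Slc2a1 (chr4:119108495-119108744, plus strand) hold 2 each. RefSeq windows were matched for 30 of the 31 genes, and Slc2a3 is named only. Either core stood before at least 1 start of 25 of the 30 genes (83.3%), and before a start of 64.3% of the other tested genes and of 41.5% of all genes in the RefSeq promoter table. For ACGTG alone the shares were 56.7% of the 30 genes, 26.2% of other tested genes and 18.5% of all genes in that table. For GCGTG alone they were 60.0%, 52.8% and 30.9% in the same order. The E-box CACGTG, which MYC and USF proteins bind and which contains ACGTG, stood before 16.7%, 10.4% and 6.86%. A gene with more starts has more windows, and the 30 genes had 45 while 8209 other tested genes had 10443. Counted per window, either core stood in 77.8% for the 30 genes and 58.2% for other tested genes. ACGTG stood in 46.7% and 22.5% of windows, and GCGTG in 51.1% and 46.9%. Of the 25 genes that fell and had a window, 20 hold a core, and Gys1, Tpi1, Gpi1, Eno2 and Gbe1 hold none. Eno1, Hk2, Pfkfb3 and Pgm2, which did not pass, and Slc16a1, which rose, each hold at least 1. A match of letters is no evidence of binding.

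Both glucose transporters fell, where 31.1% of all tested genes fell, although Slc2a3 met the filter in scrambled libraries only. Slc2a1 encodes GLUT1, the basal glucose transporter of most cultured cells, and Slc2a3 encodes the high-affinity transporter GLUT3. Slc2a1 stood at 41.9, 43.6 and 41.8 FPKM in knockdown libraries 1, 2 and 3, against 56.6, 54.1 and 55.7 FPKM in scrambled libraries 1, 2 and 3. Its 3 knockdown values lay within 2 FPKM of each other and below every scrambled value (log2 fold change -0.38 ± 0.03, limma adjusted p = 5.8e-05). Slc2a3 stood at 0.639, 0.797 and 0.841 FPKM in knockdown libraries 1, 2 and 3, against 1.70, 1.49 and 1.82 FPKM in scrambled libraries 1, 2 and 3, a mean 54.6% lower in knockdown (log2 fold change -0.79 ± 0.10, limma adjusted p = 0.000375). No library overlapped, and over the alternatives its log2 value ran from -1.14 to -0.51. By batch, Slc2a3 differed by -0.95, -0.62 and -0.79 on the log2 scale. As the minor transporter its share of the summed GLUT1 and GLUT3 FPKM was 1.75 ± 0.236% in knockdown and 2.92 ± 0.239% in scrambled libraries.

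In upper glycolysis, from glucose phosphorylation to the triose phosphates, 8 of 9 genes fell and Hk2 did not pass. Of all tested genes 31.1% fell, and Aldoc, among the 8, met the filter in scrambled libraries only. The phosphofructokinases, which catalyse the committed step, all fell. Pfkl, the liver-type subunit, stood at 50.5, 53.6 and 54.0 FPKM in knockdown libraries 1, 2 and 3, against 79.9, 79.1 and 79.8 FPKM in scrambled libraries 1, 2 and 3. The groups lay far apart against their spread, and this was the 20th smallest p of all tested genes (log2 fold change -0.59 ± 0.03, limma adjusted p = 1.64e-05). Pfkp, the platelet-type subunit, stood at 11.2, 11.4 and 10.2 FPKM in knockdown libraries 1, 2 and 3, against 18.2, 17.2 and 18.2 FPKM in scrambled libraries 1, 2 and 3 (log2 fold change -0.69 ± 0.05, limma adjusted p = 3.49e-05). Pfkm, the muscle-type subunit, fell less, with 19.4 ± 1.63 FPKM in knockdown libraries and 22.7 ± 0.509 FPKM in scrambled libraries (log2 fold change -0.23 ± 0.06, limma adjusted p = 0.0101). Tpi1, the triosephosphate isomerase, stood at 442, 458 and 455 FPKM in knockdown libraries 1, 2 and 3, against 614, 589 and 618 FPKM in scrambled libraries 1, 2 and 3. It was 25.6% lower in knockdown and the largest relative fall among the 8 genes above 100 FPKM (log2 fold change -0.42 ± 0.03, limma adjusted p = 2.37e-05). Gpi1, the glucose-6-phosphate isomerase, averaged 152 ± 1.55 FPKM in knockdown libraries and 190.0 ± 1.34 FPKM in scrambled libraries (log2 fold change -0.32 ± 0.02, limma adjusted p = 3.55e-05).

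The hexokinases, which trap glucose by phosphorylating it, had with Pfkm the smallest log2 fold changes of upper glycolysis. Hk1 averaged 21.9 ± 0.924 FPKM in knockdown libraries and 25.7 ± 0.194 FPKM in scrambled libraries (log2 fold change -0.23 ± 0.04, limma adjusted p = 0.00149). Hk2, the inducible hexokinase, averaged 11.2 ± 0.549 FPKM in knockdown libraries and 12.2 ± 0.396 FPKM in scrambled libraries and missed the threshold (log2 fold change -0.12 ± 0.05, limma adjusted p = 0.0625), though it passed after rescaling to TPM (limma adjusted p = 0.018) and with limma-voom (0.0292). Both aldolases, which split fructose bisphosphate, fell. Aldoc, the brain-type aldolase, stood at 0.189, 0.289 and 0.163 FPKM in knockdown libraries 1, 2 and 3, against 1.30, 1.23 and 1.13 FPKM in scrambled libraries 1, 2 and 3, and its mean was 82.5% lower in knockdown (log2 fold change -1.27 ± 0.11, limma adjusted p = 6.64e-05). It rested on 20, 27 and 19 fragments in knockdown libraries 1, 2 and 3 and on 153, 132 and 123 in scrambled libraries 1, 2 and 3, and its log2 value ran from -2.55 to -0.85 over the alternatives. Aldoa stood at 2.79, 3.40 and 2.59 FPKM in knockdown libraries 1, 2 and 3, against 3.97, 3.80 and 4.01 FPKM in scrambled libraries 1, 2 and 3 (log2 fold change -0.38 ± 0.09, limma adjusted p = 0.00702), and did not pass after quantile normalization (limma adjusted p = 0.0926) or cyclic loess normalization (0.0555). Aldoa is usually the main aldolase of cultured cells, yet it was listed far below its neighbours in the pathway. What lies behind that low listed level was not tested.

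**Figure D3:**
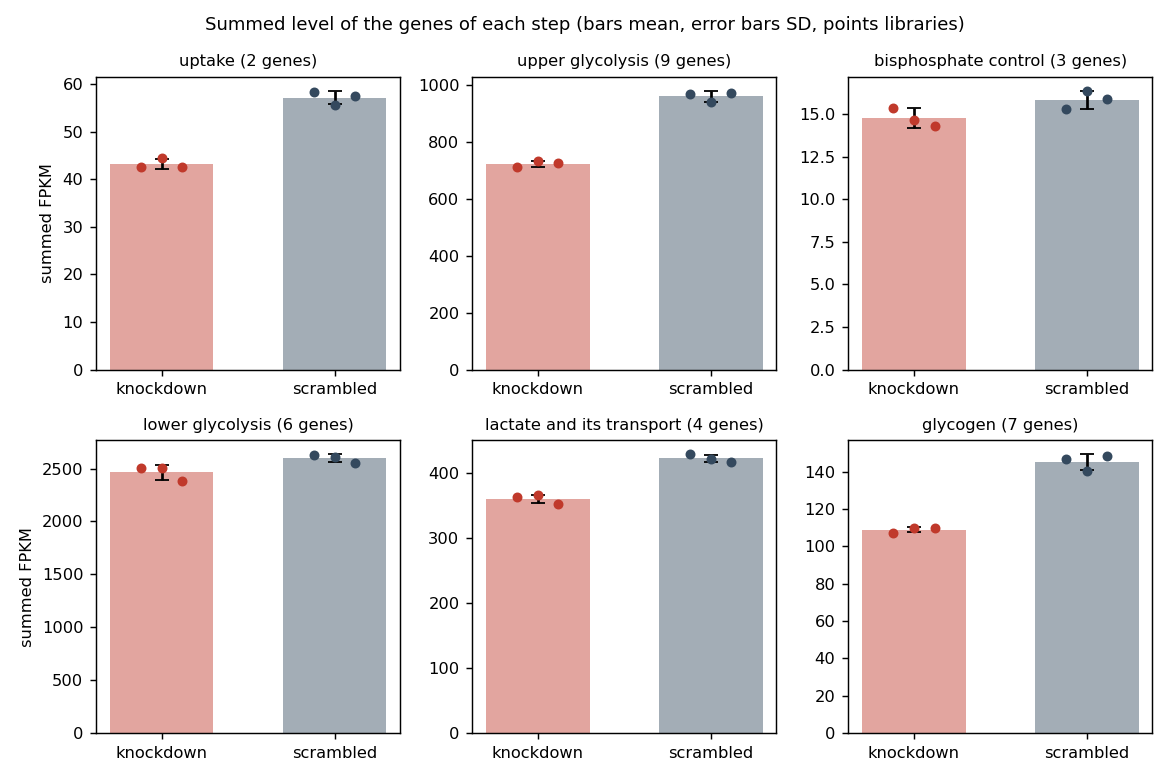
Summed FPKM of the genes of each step in knockdown (left) and scrambled (right) libraries, with bars for means, error bars for the SD and points for the 3 libraries. The groups are apart in each panel except bisphosphate control.

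Summed over its genes, upper glycolysis stood at 723 ± 10.7 in knockdown libraries and 959.9 ± 18.5 in scrambled libraries (FPKM, SD, n = 3 each), 24.7% lower in knockdown. Abundant genes weigh most in such sums: Tpi1 alone averaged 452 FPKM in knockdown and 607 FPKM in scrambled libraries. The uptake sum was nearly all Slc2a1, 98.2% in knockdown and 97.1% in scrambled libraries. The sums for uptake and for glycogen were 24.4% and 24.9% lower, that for lactate and its transport 14.7% and that for lower glycolysis 5.11%, or 9.55% without Eno1. The sum for bisphosphate control was 14.8 ± 0.561 in knockdown libraries and 15.8 ± 0.516 in scrambled libraries. In an exact permutation test over the 6 libraries, two-sided, p was 0.1 for each of these 5 sums, the smallest that 3 libraries against 3 allow, and 0.2 for bisphosphate control, whose groups overlapped (0.1 and no overlap after rescaling to TPM). All 31 genes together took 0.949 ± 0.0207% of the summed FPKM of all genes in knockdown and 1.11 ± 0.00804% in scrambled libraries.

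The bifunctional PFKFB enzymes, which make and break fructose 2,6-bisphosphate, the allosteric activator of phosphofructokinase, did not move as 1 group. Pfkfb4 averaged 9.83 ± 0.336 FPKM in knockdown libraries and 11.0 ± 0.471 FPKM in scrambled libraries (log2 fold change -0.16 ± 0.05, limma adjusted p = 0.02), and Pfkfb2 stood at 0.886, 0.773 and 0.831 FPKM in knockdown libraries 1, 2 and 3, against 1.11, 1.15 and 1.33 FPKM in scrambled libraries 1, 2 and 3 (log2 fold change -0.35 ± 0.09, limma adjusted p = 0.0128). Pfkfb2 met the filter in scrambled libraries only, so its passing had a difference built in. Pfkfb4 lost its call under median centring (0.127) and without knockdown library 2 (0.0703) or scrambled library 2 (0.0758), and Pfkfb2 without scrambled library 3 (0.0507). Each also lost it under quantile and cyclic loess normalization, where the adjusted p was 0.135 and 0.0863 for Pfkfb4 and 0.678 and 0.342 for Pfkfb2. Pfkfb3, the isoform with the highest kinase activity, stood at 4.72, 4.37 and 3.27 FPKM in knockdown libraries 1, 2 and 3, against 3.52, 3.61 and 3.67 FPKM in scrambled libraries 1, 2 and 3 and missed the threshold (log2 fold change 0.16 ± 0.11, limma adjusted p = 0.255). Knockdown libraries 1 and 2 lay above all 3 scrambled values and library 3 below them. Without knockdown library 3 its log2 fold change was 0.30 (limma adjusted p = 0.00516).

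In lower glycolysis, from glyceraldehyde phosphate to pyruvate, 5 of 6 genes fell, where 31.1% of all tested genes fell. Eno1, the ubiquitous enolase and the most abundant of the 31 genes, did not pass, with 1227, 1222 and 1171 FPKM in knockdown libraries 1, 2 and 3, against 1215, 1217 and 1188 FPKM in scrambled libraries 1, 2 and 3 (log2 fold change -0.00 ± 0.03, limma adjusted p = 0.995). The 2 groups overlapped, but the sign depended on the scaling: Eno1 passed as lower after quantile normalization (log2 fold change -0.06, limma adjusted p = 0.00804) and after cyclic loess normalization (-0.13, adjusted p = 0.00141), and stood at 0.07 after median centring. Its near-identical retrocopy Eno1b was listed at 23.7 FPKM in knockdown and 23.4 FPKM in scrambled libraries, and reads may be split between the 2. Eno2, the neuronal enolase, stood at 3.46, 2.96 and 3.93 FPKM in knockdown libraries 1, 2 and 3, against 4.93, 4.80 and 5.51 FPKM in scrambled libraries 1, 2 and 3 (log2 fold change -0.50 ± 0.09, limma adjusted p = 0.0023). Pgk1, phosphoglycerate kinase, averaged 481 ± 14.5 FPKM in knockdown libraries and 545 ± 9.85 FPKM in scrambled libraries (log2 fold change -0.18 ± 0.03, limma adjusted p = 0.00111). Gapdh averaged 123 ± 14.9 FPKM in knockdown libraries and 145 ± 4.19 FPKM in scrambled libraries (log2 fold change -0.25 ± 0.08, limma adjusted p = 0.0237), with knockdown library 3 the lowest at 106 FPKM. Without that library its log2 fold change was -0.14 (limma adjusted p = 0.00736). Pgam1, phosphoglycerate mutase, was 6.95% lower in knockdown (log2 fold change -0.10 ± 0.03, limma adjusted p = 0.00862), and Pkm, pyruvate kinase, 5.96% lower (log2 fold change -0.09 ± 0.03, limma adjusted p = 0.0235). The size of several of these changes depended on the scaling. After quantile and cyclic loess normalization the log2 fold change was -0.28 and -0.29 for Pgk1, -0.17 and -0.20 for Pgam1, and -0.23 and -0.19 for Pkm. The calls of Gapdh, Pgam1 and Pkm were lost under median centring, with adjusted p of 0.087, 0.312 and 0.579, and those of Gapdh and Pkm without the filter (0.0988 and 0.062) and without the limma trend (0.0521 and 0.0819). Those of Gapdh and Pkm were also lost without scrambled library 1 (0.0701 and 0.0879) or 2 (0.0648 and 0.0715), and that of Pkm without knockdown library 3 (0.0584).

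At the end of the pathway both lactate dehydrogenase subunits and the exporter Slc16a3 fell, and the carrier Slc16a1 rose slightly. Ldha, the subunit that favours lactate formation, averaged 234 ± 3.21 FPKM in knockdown libraries and 279.9 ± 4.28 FPKM in scrambled libraries and was 16.5% lower in knockdown (log2 fold change -0.26 ± 0.03, limma adjusted p = 9.42e-05). Ldhb, the heart-type subunit, stood at 4.87, 4.36 and 6.67 FPKM in knockdown libraries 1, 2 and 3, against 8.58, 8.57 and 8.30 FPKM in scrambled libraries 1, 2 and 3 (log2 fold change -0.65 ± 0.12, limma adjusted p = 0.00243). Knockdown library 3 stood closest to the scrambled values, with log2 differences of -0.76, -0.90 and -0.29 by batch. Slc16a3 encodes MCT4, a lactate exporter of glycolytic cells, and averaged 77.0 ± 4.19 FPKM in knockdown libraries and 92.7 ± 1.76 FPKM in scrambled libraries (log2 fold change -0.27 ± 0.04, limma adjusted p = 0.000832). Slc16a1 encodes MCT1, a monocarboxylate carrier of high affinity, and stood at 47.1, 43.5 and 43.2 FPKM in knockdown libraries 1, 2 and 3, against 41.9, 41.1 and 41.2 FPKM in scrambled libraries 1, 2 and 3. It was the 1 gene of the 31 that passed as higher (log2 fold change 0.10 ± 0.04, limma adjusted p = 0.0493). That call lay at the threshold and was lost in 10 of 17 alternatives, including the fit without any 1 of the libraries other than knockdown library 3, where the adjusted p ran from 0.0585 to 0.144.

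Of the 7 glycogen genes 6 fell and Pgm2 did not pass, where 31.1% of all tested genes fell. Pygl, among the 6, met the filter in scrambled libraries only. Pgm1, which interconverts glucose 1-phosphate and glucose 6-phosphate, stood at 18.1, 19.4 and 19.8 FPKM in knockdown libraries 1, 2 and 3, against 34.2, 30.6 and 35.7 FPKM in scrambled libraries 1, 2 and 3. Each knockdown value was below every scrambled value by more than 10 FPKM (log2 fold change -0.79 ± 0.06, limma adjusted p = 3.49e-05). Gys1, the glycogen synthase of tissues other than liver, stood at 15.3, 16.5 and 15.1 FPKM in knockdown libraries 1, 2 and 3, against 26.4, 25.0 and 27.2 FPKM in scrambled libraries 1, 2 and 3 (log2 fold change -0.73 ± 0.05, limma adjusted p = 2.37e-05). By batch, the log2 differences were -0.77, -0.58 and -0.83 for Gys1 and -0.90, -0.65 and -0.83 for Pgm1. Ugp2, which makes the UDP-glucose that Gys1 uses, was only 8.71% lower in knockdown (log2 fold change -0.13 ± 0.03, limma adjusted p = 0.0119). That call was lost under median centring (0.152) and without scrambled library 1 (0.0536).

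Gbe1, the branching enzyme, stood at 6.65, 6.69 and 8.68 FPKM in knockdown libraries 1, 2 and 3, against 9.70, 8.55 and 9.47 FPKM in scrambled libraries 1, 2 and 3 (log2 fold change -0.32 ± 0.10, limma adjusted p = 0.0219). Knockdown library 3 lay above scrambled library 2, and the call was lost after quantile normalization (adjusted p = 0.0527), without the filter (0.0867), and without knockdown library 1 or 2 or scrambled library 1 or 3 (0.0649 to 0.079). The phosphorylases, which release glucose 1-phosphate from glycogen, both fell. Pygb, the brain-type isoform, made up nearly all phosphorylase FPKM and stood at 20.5, 21.1 and 20.7 FPKM in knockdown libraries 1, 2 and 3, against 26.8, 28.1 and 28.0 FPKM in scrambled libraries 1, 2 and 3 (log2 fold change -0.40 ± 0.03, limma adjusted p = 6.04e-05). Pygl, the liver-type isoform, stood at 0.211, 0.0327 and 0.122 FPKM in knockdown libraries 1, 2 and 3, against 1.00, 1.07 and 1.32 FPKM in scrambled libraries 1, 2 and 3. Its mean was 89.2% lower in knockdown, the largest relative change of the 31 genes (log2 fold change -1.40 ± 0.14, limma adjusted p = 0.000112). It rested on 22, 3 and 14 fragments in knockdown libraries 1, 2 and 3 and 116, 113 and 141 in scrambled libraries 1, 2 and 3, and its log2 value ran from -3.43 to -0.93 over the alternatives. Pgm2, whose human counterpart acts mainly on pentose phosphates, stood at 20.9, 20.1 and 19.7 FPKM in knockdown libraries 1, 2 and 3, against 19.4, 19.5 and 18.7 FPKM in scrambled libraries 1, 2 and 3 and missed the threshold (log2 fold change 0.07 ± 0.04, limma adjusted p = 0.127), except under median centring (0.14, adjusted p = 0.0178). Its knockdown values lay above the scrambled ones, on the other side from Pgm1.

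Because FPKM are per length, isoforms of 1 enzyme can be set side by side within a library. The share of each isoform in the summed FPKM of its family was taken for 10 families (14 shares), counting only isoforms among the 31 genes. Isoforms outside the 31 were left out of the sums. Among them were Eno3, at 5.32 FPKM in knockdown and 5.86 FPKM in scrambled libraries, and Pfkfb1, at 1.37 FPKM in knockdown and 1.47 FPKM in scrambled libraries. Pgm1 made up 46.4, 49.1 and 50.1% in knockdown libraries 1, 2 and 3, against 63.8, 61.1 and 65.6% in scrambled libraries 1, 2 and 3, so that Pgm2 was about level with it in knockdown cells and well below it in scrambled cells. Aldoc took 6.69 ± 1.01% in knockdown and 23.7 ± 1.51% in scrambled libraries of aldolase FPKM, a share that rests on the low listed level of Aldoa. MCT1 (Slc16a1) made up 36.7 ± 1.43% in knockdown and 30.9 ± 0.197% in scrambled libraries of the MCT1 and MCT4 sum. Among the phosphofructokinases Pfkm made up 23.3 ± 1.60% in knockdown and 18.9 ± 0.288% in scrambled libraries, while Pfkl made up 63.5 ± 1.03% in knockdown and 66.3 ± 0.445% in scrambled libraries. For 12 of the 14 shares the groups did not overlap, where 61.1% of all tested genes did not overlap in either direction. For those shares the exact permutation p was 0.1, the smallest possible, and 0.117 after Benjamini-Hochberg adjustment over the 14. Shares within a family depend on each other. Families with Slc2a3, Pfkfb2, Aldoc or Pygl hold a gene that met the filter in scrambled libraries only, so a difference was built in.

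**Figure D4:**
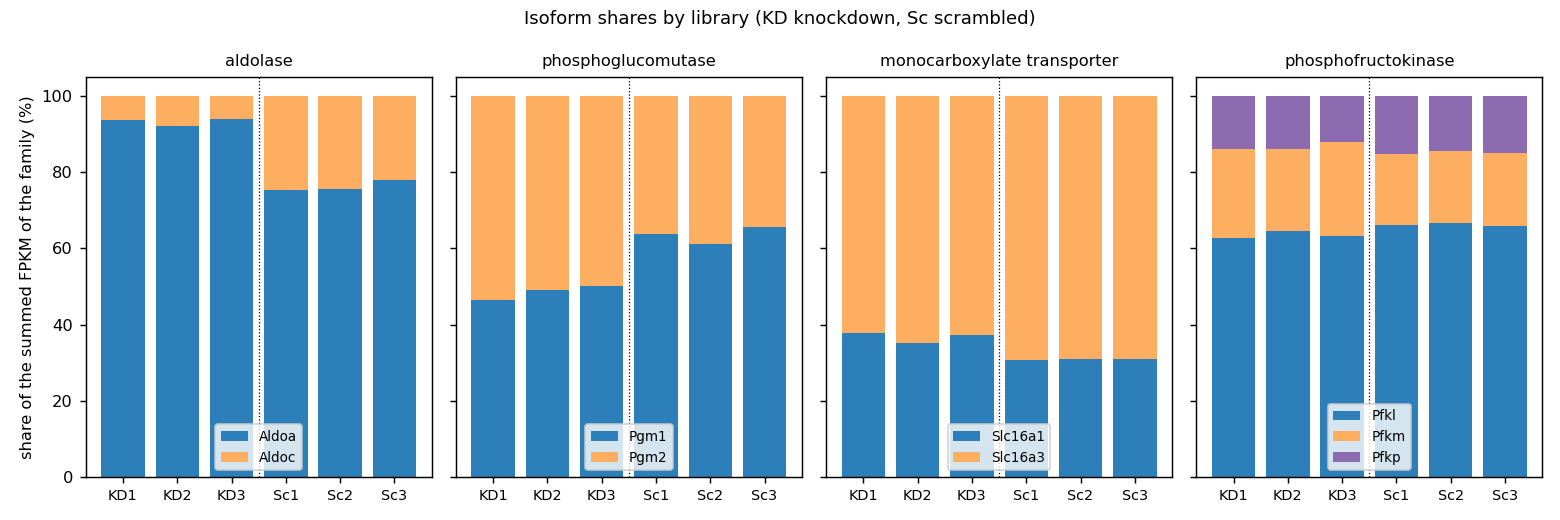
Share of each isoform in the summed FPKM of its family (percent, stacked) in the 3 knockdown (KD) and 3 scrambled (Sc) libraries. The aldolase and phosphoglucomutase bars differ most between the groups, and the MCT and phosphofructokinase bars differ by under 6 percentage points.

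Genes around the pathway were read from lists drawn up by function, with earlier results of these data known, so their counts are a description only. Of 22 other glycogen genes in the table, 13 were tested and 8 fell and 0 rose, with a median log2 fold change of -0.23, beside -0.05 for all tested genes, of which 31.1% fell and 19.8% rose. In brackets after each gene stands its log2 fold change. Stbd1, which tethers glycogen for lysosomal breakdown, averaged 5.94 FPKM in knockdown and 11.5 FPKM in scrambled libraries (-0.90, limma adjusted p = 3.85e-05), and Gaa, the lysosomal glucosidase, 38.1 FPKM in knockdown and 52.9 FPKM in scrambled libraries (-0.47, adjusted p = 0.000707). Ppp1r3b, which brings protein phosphatase 1 to glycogen, averaged 0.146 FPKM in knockdown and 1.15 FPKM in scrambled libraries. It is 1 of the 8, but met the filter in scrambled libraries only, so its passing had a difference built in. Of 9 tested glycolysis and lactate genes outside the 31, 1 fell and 2 rose (median -0.09). Bsg, the chaperone of MCT1 and MCT4, was lower (-0.18), and Minpp1 (0.19) and Tigar (0.24), a fructose 2,6-bisphosphatase, were higher. Of 2 tested hexose transporters, Slc2a8 (GLUT8) fell by 0.66 on the log2 scale and Slc2a10 stood at -0.19 (adjusted p = 0.0577).

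Side branches are given by count, beside the 31.1% of all tested genes that fell and the 19.8% that rose. The pentose phosphate shares, 37.5% lower and 12.5% higher, lay near these. Differences between lists this short were not tested. Of 7 hexosamine genes 6 fell and 0 rose (median -0.27), those of smallest p being Gfpt1 (-0.27), the first enzyme of the branch, its isoform Gfpt2 (-0.77) and Ogt (-0.29), which attaches the sugar to proteins. Of 8 pentose phosphate genes 3 fell and 1 rose (median -0.03), and those of smallest p were Tkt (-0.23), H6pd (-0.42) and Pgls (-0.27), all lower. G6pdx, the entry enzyme of that branch, stood at 69.5 FPKM in knockdown and 63.9 FPKM in scrambled libraries and rose (0.12, limma adjusted p = 0.0125). Of 6 genes of gluconeogenesis and pyruvate entry 4 fell and 0 rose (median -0.27), with Pck2, the mitochondrial PEP carboxykinase, at 25.4 FPKM in knockdown and 70.7 FPKM in scrambled libraries (-1.47), Pcx, pyruvate carboxylase, at -0.55 and Mpc2, a mitochondrial pyruvate carrier, at -0.17, and Slc37a4, the glucose 6-phosphate transporter, at -0.37. Of 5 polyol and glycerol phosphate genes 1 fell and 2 rose (median -0.12), with Akr1b3, aldose reductase, at 0.23, Khk, ketohexokinase, at -0.59 and Gpd2 at 0.20.

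Genes of the HIF list mostly fell, and regulators of glycolytic transcription and glucose sensing went both ways. Of 21 tested HIF factors, oxygen sensors and other HIF target genes 19 fell and 1, the oxygen sensor Egln2 (0.15), rose (median -0.60). The oxygen sensors Egln1 (-0.28) and Egln3 (-0.81) fell, as did Vhl (-0.37), and Hif1an (0.06) did not pass. Of all tested genes 31.1% fell and 19.8% rose. Among the HIF factors, Hif1a averaged 39.6 FPKM in knockdown and 52.0 FPKM in scrambled libraries (-0.39, limma adjusted p = 0.000316), and Arnt stood at -0.345. Vegfa, the angiogenic growth factor, averaged 26.2 FPKM in knockdown and 52.2 FPKM in scrambled libraries, Pdk1, which inhibits pyruvate dehydrogenase, 4.97 FPKM in knockdown and 14.2 FPKM in scrambled libraries, and Bnip3, a mitophagy receptor, 18.4 FPKM in knockdown and 47.8 FPKM in scrambled libraries. Of 13 tested regulators of glycolytic transcription and glucose sensing 2 (Txnip and Sp1) fell and 5 (Akt1, Myc, Trp53, Prkaa1 and Max) rose (median -0.01). Txnip, an inhibitor of glucose uptake that glucose itself induces, fell to 3.58 FPKM in knockdown, against 8.66 FPKM in scrambled libraries (-1.16, limma adjusted p = 3.17e-05). Myc (0.25) and Akt1 (0.29) rose, with Myc, the growth-linked transcription factor, at 84.5 FPKM in knockdown and 71.0 FPKM in scrambled libraries. In RefSeq on GRCm38.p6, 7 of the 31 genes overlap another protein-coding gene. With the counting strand unstated in the sources used here, their reads cannot be told apart from those of the neighbour. The neighbours of Pfkm (Senp1, 0.15), Pfkp (Pitrm1, 0.20) and Ugp2 (Vps54, 0.16) rose, that of Tpi1 (Spsb2, -0.22) fell, and those of Gys1, Slc16a3 and Pfkfb2 did not pass.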

How the data were processed

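The authors deposited 1 table of FPKM for 19877 genes in 6 libraries, with the unit given per the labels. Per the labels' protocols, bead-captured mRNA was broken by heat before reverse transcription. Builds GRCm38, mm10 and GRCm39 appear, with no role, in the submitters' processing notes. Aligner, counter and strand setting: not given in the sources used here. Whole fragments were recovered from the steps of the FPKM values, within 0.002 of a whole number for all 19877 genes. Counts of a gene that share a common factor are understated. The median tested gene had 1307 to 1723 fragments in a library. Libraries of 1 group differed by more than sampling noise (chi-square per gene 3.16 to 12.5).

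Values were tested as log2(FPKM + 0.5) with limma 3.58.1 in R 4.3.3 (moderated variance with a trend, two-sided), which understates changes of low genes; the script was tested on simulated data. Errors are the SD (n = 3) for FPKM and the SE for fold changes. The members and lists were chosen with earlier results of these data known. The genes named are all 31, with values per library for the 15 largest called changes and for isoforms that go the other way. From each other list up to 3 tested genes of smallest p are named. Eno3, Pfkfb1, G6pdx, Slc37a4, Egln1, Egln2, Egln3, Vhl, Hif1an, Hif1a, Arnt, Sp1, Trp53, Prkaa1 and Max were added after their values were seen. Labels give batches, so library numbers pair the samples. Deviations of same-numbered libraries correlated at 0.086, 0.012 and 0.189. For differently numbered libraries the correlations ran from -0.173 (knockdown 1 with scrambled 3) to 0.114 (knockdown 1 with scrambled 2). Alternatives were other pseudocounts, filters, scalings, limma without the trend, limma-voom on recovered fragments, batch as a block, and each library left out.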

Additional observations from a re-analysis of the deposited data

How the results depend on the processing

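Of the 27 genes that passed, 18 kept their call and direction in each of the 17 alternatives that tested them. The other 9 (Aldoa, Gapdh, Gbe1, Pfkfb2, Pfkfb4, Pgam1, Pkm, Slc16a1 and Ugp2) kept their direction but lost the call in at least 1. The count of the 31 genes that fell ran from 22 to 25 with 1 library left out, and the count that rose from 0 to 2. It was 0 rising genes without the filter, after rescaling to TPM, after quantile or cyclic loess normalization and without the limma trend, and 2 under median centring. The cause was not tested. With a mean FPKM of at least 5 the count of all genes that fell was 2042, where fewer genes were tested. With 1 library left out it ran from 2626 to 3304, and the count that rose from 1676 to 1980. Eno1, which did not pass, turned to 0.066 under median centring and to 0.00 with limma-voom, and ran from -0.012 to 0.021 with 1 library left out; the cause was not tested. On the recovered fragments limma-voom called 3313 of all tested genes lower and 2101 higher, with 27 and 1 of the 31. With batch as a replicate block 26 of the 31 genes fell and 1 rose, with 3174 and 2055 of all tested genes, and the block changed no call among the 31. Summed levels of uptake, upper glycolysis, lower glycolysis, lactate and glycogen genes were 26.7%, 27.0%, 8.04%, 17.3% and 27.2% lower in knockdown after rescaling to TPM. Depth limits Pygl and Aldoc most, since a knockdown library held as few as 3 and 19 fragments of them.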
